A study of Mus musculus with 6 samples.

Results

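The genes described here are 10 members of the BCL2 family, which set whether a cell lives or starts its own death. They were taken by symbol from the deposited table of 23203 loci, and each symbol stood alone on exactly 1 locus. The 3 survival genes were Bcl2, Bcl2l1 and Mcl1. The 7 death genes were the effectors Bax and Bak1 and the BH3-only genes Bcl2l11, Bad, Bid, Bbc3 and Pmaip1. All 10 passed the filter on low values (mean FPKM of 1 or more across the 6 libraries) and were among the 10228 loci tested. FPKM counts fragments per kilobase of transcript, scaled for sequencing depth, so levels of different genes can be set side by side.

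The libraries came from mouse CD4 T cells that entered culture as naive cells and were driven towards the Th17 type, the helper T cell that makes IL-17. The 3 treated libraries were from cultures with 250 µM 2DG (2-deoxyglucose, a glucose analogue that inhibits glycolysis) and the 3 control libraries from cultures with vehicle (DMSO). Both groups shared coated anti-CD3e at 10 µg/ml, anti-CD28 at 1 µg/ml, IL-6 at 20 ng/ml, TGFb1 at 2.5 ng/ml and IL-23 at 10 ng/ml, and ran for 48 h. The sources used here do not give the mouse strain, the age or the number of animals, nor do they say that replicate libraries are from separate animals or cultures. The p-values therefore speak only of the scatter among these 6 libraries, part of which may be technical. The comparison asks which survival and death transcripts differ between Th17 cultures with 2DG and with vehicle. Cell death itself was not analysed here.

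In mitochondrial apoptosis, BAX and BAK, the proteins of Bax and Bak1, open pores in the outer mitochondrial membrane, which lets cytochrome c out and switches on caspases. BCL2, BCL-XL (from Bcl2l1) and MCL1 hold BAX and BAK in check. The BH3-only proteins, which share only the short BH3 stretch with the rest of the family, sense stress and bind the survival proteins or activate BAX and BAK directly. In T cells, BCL2 is known for keeping resting and memory cells alive, BCL-XL and MCL1 for the survival of activated cells, and BIM (from Bcl2l11) for removing T cells after a response. Much of this control acts on the proteins, which RNA values do not show.

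The libraries carried the labelled cell type. Of 8 defining CD4 and Th17 markers, 7 were matched and all 7 were detected, with a summed level of 2647 to 3324 FPKM with 2DG and 2025 to 2257 FPKM with vehicle. The part of that difference in the results below was not tested. CD8 T cell markers summed to 2.91 to 5.51 FPKM with 2DG and 2.68 to 3.31 FPKM with vehicle, B cell markers to 0.0945 to 2.25 FPKM with 2DG and 0.620 to 3.71 FPKM with vehicle, and myeloid markers to 0.535 to 2.97 FPKM with 2DG and, with vehicle, 0.914 to 3.498 FPKM. NK cell markers reached at most 0.0755 FPKM in any library. Erythroid and platelet markers were listed at 0 in all 6 libraries. Absolute depth is unknown, since the table gives no counts. Rough relative depths, read from the steps between low values, were 1.11, 0.603 and 0.853 for 2DG replicates 1 to 3 and 1, 0.415 and 0.611 for vehicle replicates 1 to 3. Replicate 1 of each group stood apart in Rn45s, the ribosomal RNA precursor, which was at 7186 FPKM with 2DG and 12874 FPKM with vehicle there and at 0 elsewhere. The 2 libraries numbered replicate 1 share the number 17 in their titles, those of replicate 2 the number 42 and those of replicate 3 the number 43, and no label says what these numbers mark. The differences between the replicate 1 libraries and in replicates 2 and 3 are therefore given for each member below.

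No member passed the test with 2DG against vehicle. By limma on log2(FPKM + 1), with Benjamini-Hochberg adjustment over all tested loci and a threshold of 0.05, 0 of 10 members were called higher and 0 lower, while 1.53% of all tested loci were called higher, 1.19% lower and 2.72% in either direction. At an unadjusted p under 0.05, 2 members were lower (Bcl2 and Bcl2l1) and 0 higher, against 8.82% of all tested loci that were lower at that level. In 3 members (Bcl2, Bcl2l1 and Bak1) every 2DG library lay below every vehicle library, and in 0 members above. Among all tested loci the groups stood apart in this way for 11.8% (lower with 2DG) and 11.9% (higher with 2DG). The median log2 fold change was -0.08 over the 10 members and -0.0093 over all tested loci. In bulk RNA, fewer cells of a type and less RNA per cell cannot be told apart. Of 4 other survival genes of the family that were tested, Bcl2a1b and Bcl2a1d, which encode forms of the survival protein A1, were called higher with 2DG, as described below.

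**Figure D1:**
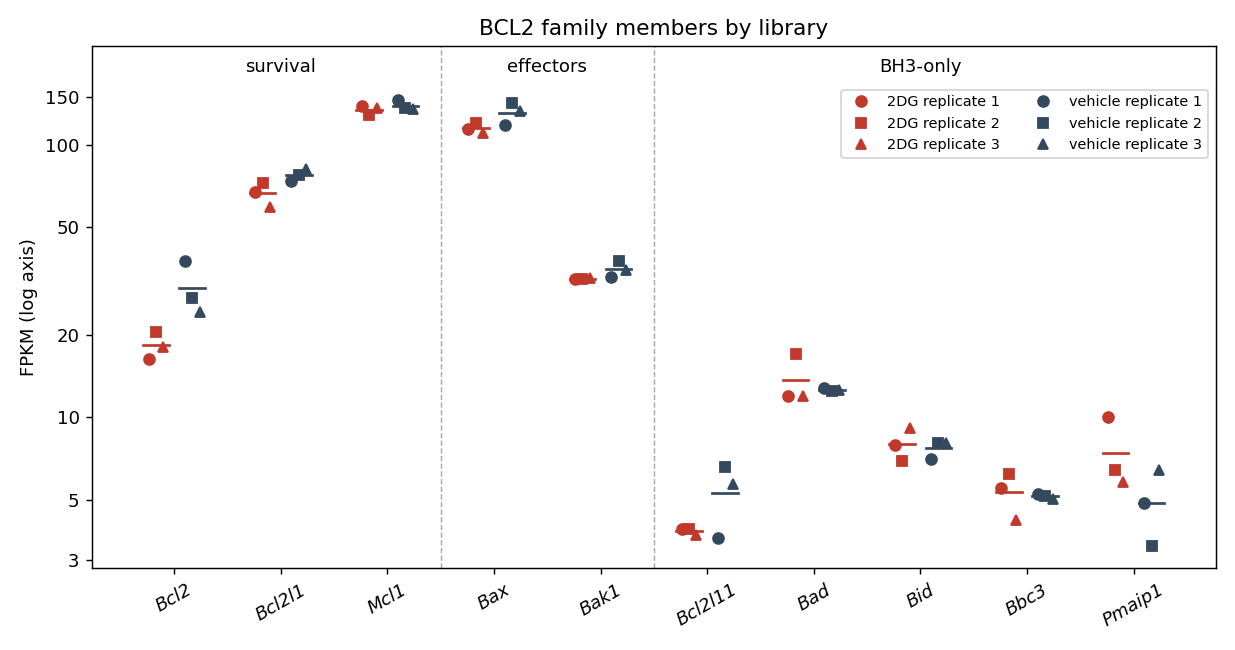
Expression of the 10 BCL2 family members in FPKM (log axis) in each library, 2DG in red left of vehicle in blue, with symbols for the replicate and a line at the group mean. Every Bcl2 point with 2DG (16.4 to 20.5 FPKM) lies below every point with vehicle (24.3 to 37.5 FPKM), while the Mcl1 points of both groups overlap.

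By level, the survival gene Mcl1 and the effector gene Bax stood at the top of the family and the BH3-only genes at the bottom. With 2DG the order of mean FPKM was Mcl1, Bax, Bcl2l1, Bak1, Bcl2, Bad, Bid, Pmaip1, Bbc3 and Bcl2l11, and with vehicle it was Mcl1, Bax, Bcl2l1, Bak1, Bcl2, Bad, Bid, Bcl2l11, Bbc3 and Pmaip1. With 2DG the neighbours Bcl2 and Bad overlapped in their libraries, as did Bid with Pmaip1 and Pmaip1 with Bbc3. With vehicle the overlapping neighbours were Mcl1 and Bax, Bak1 and Bcl2, Bcl2l11 and Bbc3, and Bbc3 and Pmaip1. With 2DG the range of Bcl2 met that of Bad only through Bad in replicate 2 (17.0 FPKM). Within each 2DG library Bcl2 was above Bad and below Bak1. With vehicle Bcl2 was above Bak1 in replicate 1 (37.5 against 32.6 FPKM) and below it in replicates 2 and 3.

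Bcl2 had the lowest adjusted p of the 10 members. It encodes the founding survival protein, which blocks BAX and BAK and holds BH3-only proteins such as BIM. Its locus XLOC_000945 matches the gene on chromosome 1, 106538178 to 106714274 (GRCm38, minus strand), where it overlaps the antisense gene D630008O14Rik, whose reads cannot be told apart without a stated use of strand. Bcl2 was at 16.4, 20.5 and 18.2 FPKM in the 2DG libraries, against 37.5, 27.5 and 24.3 FPKM in the vehicle libraries. All 3 2DG values lay below all vehicle values, and vehicle replicate 1 was the highest of all. The means were 18.4 ± 2.06 FPKM with 2DG and 29.8 ± 6.89 FPKM with vehicle (SD, n = 3 each), a ratio of 0.618. The log2 fold change was -0.65 ± 0.16 (SE), with a 95% interval of -1.04 to -0.26 and an adjusted p of 0.093 by limma, which missed the threshold. It was -1.14 between the replicate 1 libraries and -0.40 in replicates 2 and 3 (adjusted p = 0.32 when those were fitted alone). When small RNA genes were left out of the loci tested, the same difference passed by a narrow margin (adjusted p = 0.049), and over all 19 alternatives its adjusted p ran from 0.049 to 0.32.

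The stretch around the annotated start of Bcl2 is shown because this gene had the largest difference among the 10 members. It is the RefSeq promoter window of 250 bases before to 50 after the start, at chr1:106714241-106714540 (GRCm38.p6, minus strand, written 5′ to 3′ along the gene), and 76.0% of its bases are G or C. Motifs of these factors were searched on both strands: STAT as TTCNNNGAA, NF-kB as GGGNNNNNCC, AP-1 as TGANTCA and FOXO as TGTTTAC. Capitals mark the single match, of the NF-kB pattern, which 50.8% of 32851 RefSeq promoter windows also hold.
Bcl2 promoter: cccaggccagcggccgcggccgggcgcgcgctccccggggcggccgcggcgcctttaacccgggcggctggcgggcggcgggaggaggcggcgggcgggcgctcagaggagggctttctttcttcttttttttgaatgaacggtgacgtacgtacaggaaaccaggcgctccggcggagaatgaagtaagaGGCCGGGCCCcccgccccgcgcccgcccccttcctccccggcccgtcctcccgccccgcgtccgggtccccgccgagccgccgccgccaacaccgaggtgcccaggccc
The other 3 motifs had no match in this window, which says only that those letters are not there.

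Bcl2l1 and Mcl1 were far more abundant and moved less. Bcl2l1 encodes BCL-XL (XLOC_012344, chromosome 2, 152780668 to 152831728) and was at 67.1, 72.6 and 59.2 FPKM with 2DG, against 73.3, 77.5 and 81.1 FPKM with vehicle. The groups stood apart, but the highest 2DG library and the lowest vehicle library were close. Its means were 66.3 ± 6.74 FPKM with 2DG and, with vehicle, 77.3 ± 3.88 FPKM (SD, n = 3 each). On the log2 scale the difference was -0.22 (95% interval -0.45 to -0.00060, adjusted p = 0.28 by limma). It was -0.13 between the replicate 1 libraries and -0.27 in replicates 2 and 3. Mcl1 encodes a short-lived survival protein that activated lymphocytes depend on (XLOC_012847, chromosome 3, 95658788 to 95663176). It was at 139, 128 and 136 FPKM with 2DG, against 145, 136 and 135 FPKM with vehicle, and these overlapped. Its log2 fold change was -0.05 (-0.06 between the replicate 1 libraries, -0.04 in replicates 2 and 3) and turned to 0.0072 with equal sums outside small RNA genes. Its 95% interval was -0.22 to 0.13.

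The composition of the survival transcripts differed by library as well. Bcl2 made up 7.39%, 9.30% and 8.50% of the summed FPKM of the 3 survival genes with 2DG, against 14.6%, 11.4% and 10.1% with vehicle. Mcl1 made up 57.9% to 63.8% with 2DG and 56.2% to 56.7% with vehicle, and Bcl2l1 27.7% to 32.8% with 2DG and 28.6% to 33.7% with vehicle. The groups did not overlap for Bcl2 and Mcl1 and did for Bcl2l1. A share within a library does not depend on how the library was scaled, and an unequal change of the 3 genes is all that it shows. These shares are descriptions with no test.

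Both effector genes had slightly lower means with 2DG, and neither passed. Bax, whose protein moves from the cytosol to mitochondria to form pores, lies at XLOC_019032 (chromosome 7, 45461697 to 45466898). It was at 114, 120 and 110 FPKM with 2DG, against 118, 142 and 133 FPKM with vehicle. Vehicle replicate 1 was the lowest of its group and fell inside the 2DG range. The log2 fold change was -0.18 (95% interval -0.40 to 0.03, adjusted p = 0.35 by limma), with -0.05 between the replicate 1 libraries and -0.25 in replicates 2 and 3. Bak1, whose protein sits on mitochondria all the time (XLOC_008898, chromosome 17, 27019810 to 27029009), was at 32.2, 32.1 and 32.5 FPKM with 2DG, against 32.6, 37.5 and 34.7 FPKM with vehicle. The groups stood apart, but the highest 2DG library (32.5 FPKM) nearly touched the lowest vehicle library (32.6 FPKM), and the log2 fold change was -0.11 (95% interval -0.29 to 0.07, adjusted p = 0.52), with -0.02 between the replicate 1 libraries and -0.16 in replicates 2 and 3. Bax was 3.40 to 3.75 times Bak1 in the 2DG libraries and 3.62 to 3.82 times Bak1 in the vehicle libraries. Bak1 overlaps Ggnbp1 on the opposite strand, and without a stated use of strand reads of both genes cannot be told apart. Bax overlaps Gm45808 on its own strand, a gene that has no locus of that name here, and reads from their shared stretch cannot be told apart.

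The BH3-only genes went both ways, and all 5 had groups that overlapped. Pmaip1, which encodes NOXA, a protein that binds MCL1 and promotes its breakdown, had the largest positive difference of the 10 members (XLOC_009516). It was at 10.0, 6.42 and 5.81 FPKM with 2DG, against 4.84, 3.37 and 6.41 FPKM with vehicle. 2DG replicate 1 stood highest and vehicle replicate 2 lowest, and vehicle replicate 3 lay among the 2DG values. The means were 7.42 ± 2.29 FPKM with 2DG and 4.87 ± 1.52 FPKM with vehicle (SD, n = 3 each). The log2 fold change was 0.52 (SE 0.25, limma adjusted p = 0.32), and its 95% interval of -0.06 to 1.098 included 0. The difference was 0.92 between the replicate 1 libraries and 0.32 in replicates 2 and 3. Mcl1 exceeded Pmaip1 by 13.8 to 23.5 times in the 2DG libraries and by 21.1 to 40.5 times in the vehicle libraries.

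Bcl2l11, the gene of BIM, was the least abundant member with 2DG (XLOC_011209, chromosome 2, 128126038 to 128162547). It was at 3.89, 3.89 and 3.71 FPKM with 2DG, against 3.63, 6.56 and 5.69 FPKM with vehicle. The 2DG libraries were almost equal, with a coefficient of variation of 2.64%, while the vehicle libraries varied by 28.5% because replicate 1 lay below all 2DG values. The log2 fold change was -0.35 (95% interval -0.78 to 0.08, adjusted p = 0.37 by limma). It was 0.08 between the replicate 1 libraries and -0.57 in replicates 2 and 3, opposite in sign. Without vehicle replicate 1 it was -0.56 with an adjusted p of 0.085, and without vehicle replicate 2 it was -0.20. Bcl2 was 4.23 to 5.28 times Bcl2l11 with 2DG, against 10.3, 4.19 and 4.27 times with vehicle, so this ratio differed from the 2DG libraries in vehicle replicate 1 alone.

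Bad, Bid and Bbc3 showed the smallest differences among the death genes. Bad encodes a BH3-only protein that survival kinases switch off by phosphorylation (XLOC_009896, chromosome 19, 6941861 to 6951899), and was at 12.01, 17.0 and 11.9 FPKM with 2DG, against 12.8, 12.5 and 12.7 FPKM with vehicle. Only 2DG replicate 2 departed from the rest. Without it the log2 fold change was -0.07, against 0.09 with all libraries (95% interval -0.24 to 0.41). Bid, which caspase-8 cuts to link death receptors to mitochondria (XLOC_017396, chromosome 6, 120891930 to 120916853), was at 7.91, 6.94 and 9.18 FPKM with 2DG, against 7.05, 8.05 and 8.03 FPKM with vehicle, a log2 fold change of 0.04 (95% interval -0.23 to 0.32). Bbc3 encodes PUMA, a p53-induced activator of apoptosis (XLOC_017675, chromosome 7, 16308393 to 16318205), and was at 5.53, 6.23 and 4.23 FPKM with 2DG, against 5.25, 5.16 and 5.03 FPKM with vehicle. Its log2 fold change was 0.03 (95% interval -0.29 to 0.35). In replicate 1 alone Bad differed by -0.09, Bid by 0.15 and Bbc3 by 0.06, and over replicates 2 and 3 Bad differed by 0.17, Bid by -0.0079 and Bbc3 by 0.01. These 3 signs are not settled: that of Bid turned without vehicle replicate 1 (-0.01) or 2DG replicate 3 (-0.05), and that of Bbc3 without 2DG replicate 2 (-0.07). The vehicle libraries were the tighter group for Bad and Bbc3, with coefficients of variation of 1.31% and 2.12%, against 21.4% and 19.1% with 2DG. Bad overlaps the start of Gpr137 and Bid the end of Bcl2l13, each on the opposite strand, and the table lists both of these genes.

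**Figure D2:**
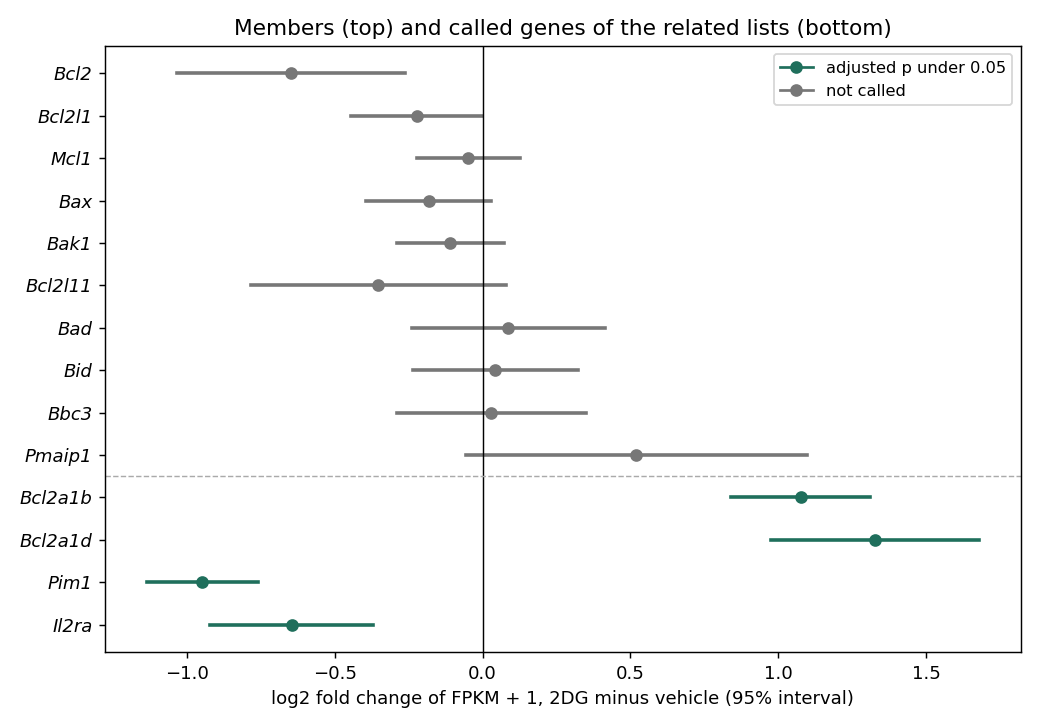
Log2 fold change of FPKM + 1, 2DG minus vehicle, with 95% intervals from limma, for the 10 members (above the dashed line) and for the 4 genes of the related lists that were called (below it). All 10 members are grey (not called), with Bcl2 at -0.65 and Pmaip1 at 0.52 as the ends of their range, while Bcl2a1b and Bcl2a1d lie above 0 and Pim1 and Il2ra below 0.

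Set against each other on the log scale, with every gene weighted alike, survival genes were lower relative to death genes in every 2DG library than in any vehicle library. By summed FPKM the groups overlapped. The mean log2(FPKM + 1) of the 3 survival genes exceeded that of the 7 death genes by 1.89, 2.00 and 2.00 in 2DG libraries, against 2.49, 2.22 and 2.12 in vehicle libraries. On this scale the groups stood apart, and vehicle replicate 1 was highest. The means were 1.96 ± 0.06 with 2DG and 2.28 ± 0.19 with vehicle (SD, n = 3 each), a difference of -0.31. The difference was -0.21 without vehicle replicate 1 and -0.17 without replicate 1 of both groups. No p is given for this score, since the members were chosen as a group. Bcl2 weighed most in it: the log2 fold changes were -0.65 for Bcl2, -0.22 for Bcl2l1 and -0.05 for Mcl1. Those of the 7 death genes ran from -0.35 to 0.52 (median 0.03). Bcl2 and Pmaip1 were the members farthest from 0 on either side. The score leaves out the A1 genes, described below, of which Bcl2a1b and Bcl2a1d were called higher with 2DG. In summed FPKM, the survival genes came to 214 to 222 FPKM with 2DG and 241 to 256 FPKM with vehicle. The death genes came to 178 to 193 FPKM with 2DG and 184 to 215 FPKM with vehicle, most of it Bax. The survival sum was 1.20, 1.15 and 1.20 times the death sum with 2DG, against 1.39, 1.12 and 1.17 times with vehicle. In that ratio vehicle replicate 1 lay above all 2DG libraries and vehicle replicate 2 below them. Bax was 6.91, 5.86 and 6.08 times Bcl2 with 2DG, against 3.14, 5.16 and 5.45 times with vehicle.

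The A1 genes are survival members of the same family outside the 10, and they changed in the opposite direction to Bcl2. A1 is induced by antigen receptor and NF-kB signals in lymphocytes and, like MCL1, holds BIM and NOXA; mice carry several near-identical copies. Of 6 other survival genes listed, 4 were tested, 2 were called higher and 0 lower. Bcl2a1b (XLOC_021249, chromosome 9, 89199209 to 89207827) was at 56.4, 50.8 and 54.3 FPKM with 2DG, against 28.3, 22.5 and 24.5 FPKM with vehicle. On the log2 scale it rose by 1.08 (SE 0.10, limma adjusted p = 0.0045), and it kept its call under all 19 alternatives. Bcl2a1d (XLOC_021892, chromosome 9, 88723285 to 88731914) was at 25.1, 22.0 and 23.8 FPKM with 2DG, against 7.29, 8.28 and 11.3 FPKM with vehicle. On the log2 scale it rose by 1.33 (SE 0.15, limma adjusted p = 0.0088), and it lost its call in 1 of 19 alternatives, replicates 2 and 3 only (adjusted p = 0.055). In both genes every 2DG library lay well above every vehicle library. Bcl2a1c was at 1.84, 1.87 and 2.87 FPKM with 2DG and 0.812, 0 and 1.22 FPKM with vehicle and did not pass (adjusted p = 0.15). Bcl2a1a was listed between 0 and 0.391 FPKM and fell under the filter, and Bcl2l2, which encodes BCL-W, did not pass (6.27 to 8.74 FPKM with 2DG, 6.27 to 7.41 FPKM with vehicle, adjusted p = 0.82).

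How FPKM are divided among the A1 copies is uncertain. The annotated transcripts of Bcl2a1b and Bcl2a1d share 810 of 817 aligned bases (99.1%), and that of Bcl2a1a shares 98.2% with Bcl2a1b and 98.8% with Bcl2a1d, so many reads suit more than 1 copy. The sum over the 4 A1 loci still depends on that division to a degree, because FPKM divide by length and the Bcl2a1c transcript has 444 bases, against 817 in Bcl2a1b and 863 in Bcl2a1d. The sum was 83.5, 74.6 and 81.0 FPKM with 2DG, against 36.4, 31.2 and 37.0 FPKM with vehicle, and the means were 79.7 ± 4.57 FPKM with 2DG and 34.9 ± 3.18 FPKM with vehicle (SD, n = 3 each), a ratio of 2.29. The A1 sum was 5.08, 3.63 and 4.46 times Bcl2 in the 2DG libraries, against 0.969, 1.14 and 1.52 times in the vehicle libraries. Added to Bcl2, Bcl2l1 and Mcl1, it brought the survival transcripts to 295 to 306 FPKM with 2DG and 273 to 292 FPKM with vehicle, so that the sum with A1 was higher with 2DG where the sum without A1 was lower.

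The promoter windows of the 2 called A1 genes are shown because these genes rose together and their likeness is visible in the letters. Both are RefSeq windows on GRCm38.p6, at chr9:89199023-89199322 (plus strand) for Bcl2a1b and chr9:88731801-88732100 (minus strand) for Bcl2a1d, written 5′ to 3′ along the gene. The annotated starts differ, so the windows overlap only in part. Of 250 aligned bases 247 are identical (98.8%), not counting a short stretch within the overlap that only Bcl2a1b holds. Capitals mark matches to the motifs named for Bcl2: an AP-1 match in each, in the shared stretch, and in Bcl2a1b also a pair of overlapping NF-kB matches at the annotated start. The Bcl2a1d window ends within the letters of that pair, so whether this copy holds the matches cannot be read from it.
Bcl2a1b promoter: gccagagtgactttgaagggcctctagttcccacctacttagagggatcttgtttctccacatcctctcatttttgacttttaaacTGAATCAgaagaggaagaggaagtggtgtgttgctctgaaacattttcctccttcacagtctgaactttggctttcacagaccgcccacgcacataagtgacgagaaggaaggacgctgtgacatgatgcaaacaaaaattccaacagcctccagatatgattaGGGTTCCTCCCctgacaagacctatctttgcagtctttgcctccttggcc
Bcl2a1d promoter: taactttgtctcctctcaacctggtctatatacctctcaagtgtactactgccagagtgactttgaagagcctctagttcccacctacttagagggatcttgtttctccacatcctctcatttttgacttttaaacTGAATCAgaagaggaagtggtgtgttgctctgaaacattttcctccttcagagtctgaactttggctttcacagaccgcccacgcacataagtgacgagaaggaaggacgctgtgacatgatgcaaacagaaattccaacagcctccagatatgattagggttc
The NF-kB pattern, present in 50.8% of all RefSeq windows, was in 13 of 15 windows of the 9 members in that table, and each of the 9 had at least 1. The fixed letters of this pattern are all G or C, and 49.3% to 78.0% of the bases in the member windows were G or C. Some members have several windows, and those of Bbc3 partly overlap. What these traits add to the count was not tested. The AP-1 pattern was present in 7.81% of all RefSeq windows and in 0 of those 15. A STAT match was present in 8.30% of all windows and in 0 of those 15. The FOXO pattern was present in 3.65% of all windows and in 2 of the 15, 1 each of Bcl2l11 and Bbc3. A match is a description of letters and not a site in use.

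**Figure D3:**
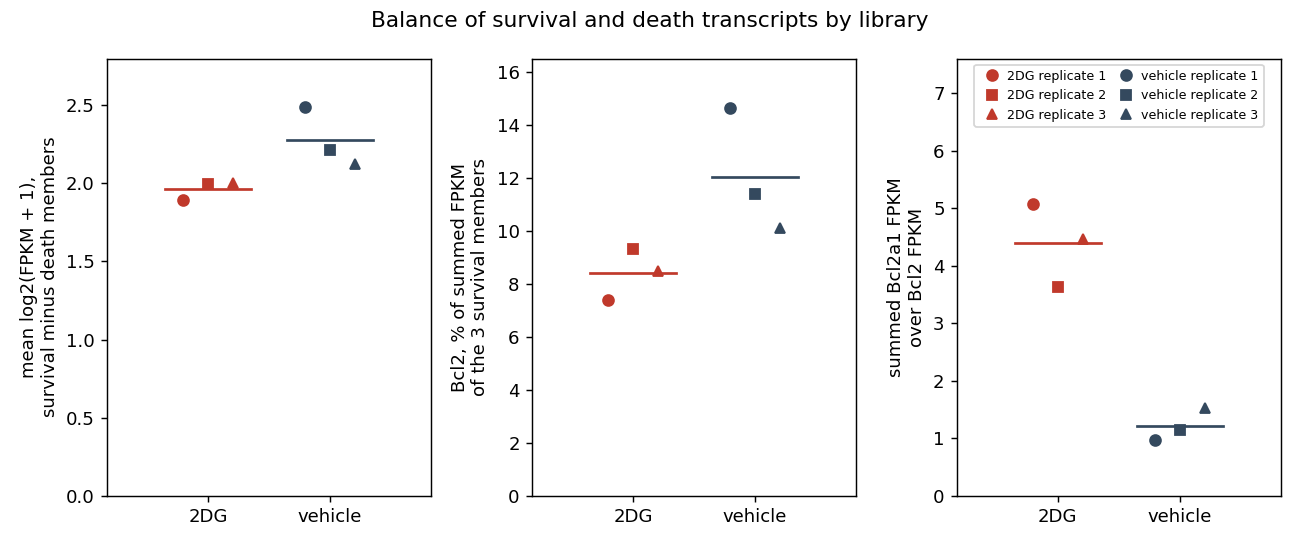
Values per library, 2DG in red left of vehicle in blue, with a line at the group mean: the mean log2(FPKM + 1) of survival minus death members (left), Bcl2 as a percentage of the summed FPKM of Bcl2, Bcl2l1 and Mcl1 (middle) and the summed FPKM of the 4 A1 loci over that of Bcl2 (right). Groups do not overlap in any panel, and the ratio of A1 to Bcl2 was 3.63 to 5.08 with 2DG and 0.969 to 1.52 with vehicle. Every panel uses the Bcl2 values, whose groups stood apart by themselves, so the panels are not separate results. The groups of the A1 sum also stood apart, so the gap in its ratio to Bcl2 follows from both.

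The wider pathway was read through further lists of genes that act with the 10 members. Of 100 genes in 10 further lists, the A1 list included, 91 were tested, 2 were called higher (both A1 genes) and 2 lower, and 87 did not pass. The 4 calls are 4.40% of the genes tested, against 2.72% of all tested loci. Many reads suit both called A1 genes, as described above, so their 2 calls are not separate results. Among 6 tested relatives on the death side, such as Bnip3 and Bik, 0 were called, with log2 fold changes of -0.24 to 0.59 (median 0.07). In the apoptosome list, which holds Apaf1, Casp9 and the proteins that leave mitochondria, 0 of 10 were called (-0.57 to 0.14, median 0.0035). Of 7 other caspase and nuclease genes, 0 were called (-0.61 to 0.26, median 0.01). The inhibitor of apoptosis genes, which include Xiap, had 0 of 5 called (-0.18 to 0.15, median 0.01), and the death receptor genes 0 of 10 (-0.93 to 0.27, median -0.17). The list of p53 and its targets had 0 of 14 called (-0.51 to 0.53, median -0.02). Trp53, which encodes p53, was at 58.2 to 59.8 FPKM with 2DG and 52.4 to 57.8 FPKM with vehicle (log2 fold change 0.10, adjusted p = 0.54). Of 9 genes in the list of factors that switch on BH3-only genes, 0 were called (-0.33 to 1.17, median 0.11). The value of 1.17 was that of Chac1, a target of the factor ATF4 and not itself such a factor. Foxo3, which switches on Bcl2l11, was at 7.36 to 9.22 FPKM with 2DG and 8.19 to 8.59 FPKM with vehicle. Trp53, Foxo3 and Chac1 were named after their values were seen.

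The other 2 calls were genes that act on the family from outside. Pim1 encodes a kinase that STAT3 and STAT5 induce and that phosphorylates BAD (XLOC_008383, chromosome 17, 29490753 to 29496112). It was at 72.7, 82.6 and 79.7 FPKM with 2DG, against 149, 159 and 148 FPKM with vehicle. The groups were far apart, with a ratio of 0.515. On the log2 scale Pim1 fell by 0.95 (SE 0.08, limma adjusted p = 0.0034), and the call held under all 19 alternatives. It was the 1 called gene among 15 tested that control the MCL1, BIM and BAD proteins (median -0.05). Il2ra, the high-affinity chain of the IL-2 receptor (XLOC_010617, chromosome 2, 11642807 to 11693193), was at 250, 285 and 235 FPKM with 2DG, against 354, 444 and 409 FPKM with vehicle. On the log2 scale Il2ra fell by 0.64 (SE 0.12, limma adjusted p = 0.039), but it kept its call in only 8 of 19 alternatives and in 1 of the 6 that left out a library, the one without vehicle replicate 1 (highest adjusted p = 0.14). It was the 1 called gene among 11 tested cytokine receptor and STAT genes (median -0.09). Il7r, the receptor chain through which IL-7 maintains Bcl2 in resting T cells, named after its values were seen, was at 3.41, 5.44 and 6.70 FPKM with 2DG, against 17.6, 7.07 and 9.15 FPKM with vehicle (adjusted p = 0.20). As for Bcl2, the groups stood apart and vehicle replicate 1 was the highest. Whether the values of Il7r and Bcl2 are linked was not tested.

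Among the 5 tested loci outside the lists whose pattern was most like that of Bcl2 were Galc, Tmem121, Tmem180 and Epn2. Likeness was the root mean square difference of log2(FPKM + 1) over the 6 libraries after each gene was centred on its mean, and ran from 0.05 for Galc to 0.09 for Epn2. Galc, which encodes a lysosomal enzyme that breaks down galactolipids, was at 1.91, 2.58 and 2.01 FPKM with 2DG, against 5.62, 3.45 and 3.21 FPKM with vehicle. The log2 fold changes of the 4 genes lay between -0.66 and -0.59, and with adjusted p of 0.084 to 0.16 by limma none passed. Their likeness to Bcl2 over these 6 libraries, its order of libraries included, is what chose them and is no finding.

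**Figure D4:**
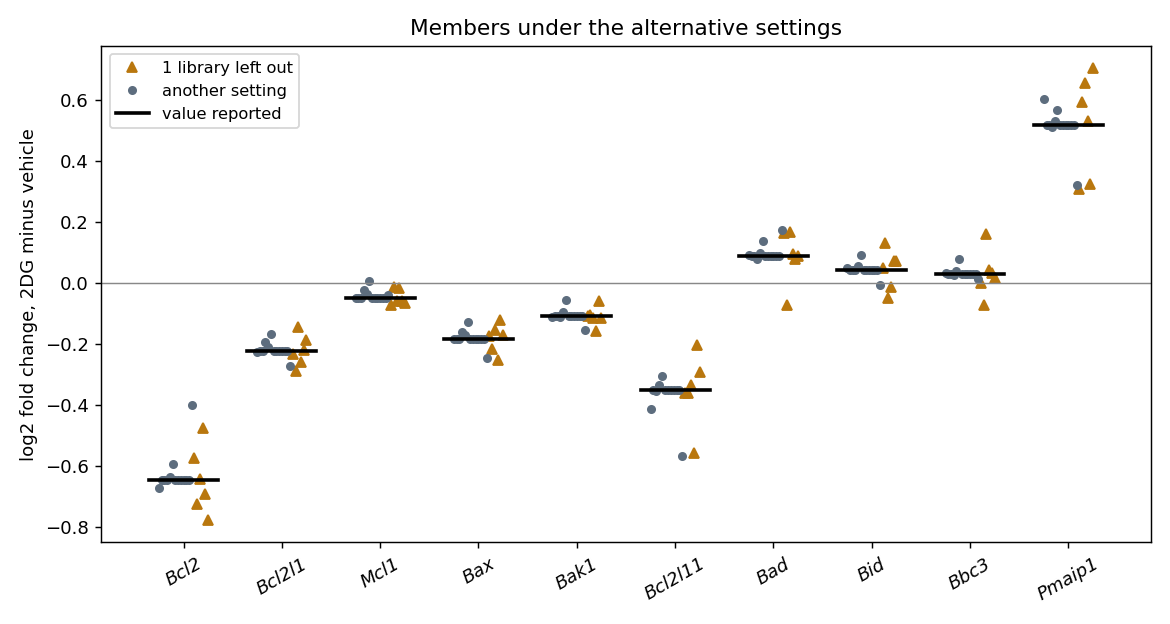
Log2 fold change (2DG minus vehicle) of each of the 10 members as reported (black line), with 1 library left out (triangles) and under the other settings (dots). Bcl2, Bcl2l1, Bax, Bak1 and Bcl2l11 stay below 0 and Pmaip1 stays above 0 throughout, with Bcl2 between -0.78 and -0.40, while Mcl1, Bad, Bid and Bbc3 lie on both sides of 0.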

How the data were processed

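RNA from 3 2DG and 3 vehicle cultures had been sequenced. Per the file headers, the authors deposited 1 table with the FPKM of each locus in each library. Cuffdiff 2.2.1.3, Cuffnorm 2.2.1.1, Cufflinks 2.2.1.0 and TopHat2 2.1.0 are among the tools, and mm10 is the build, per the submitters' processing notes. The sources used here give no settings, annotation, strand use or scaling. The 75th percentiles of the libraries lay between 10.9 and 11.6 FPKM, and 69.8% to 76.1% of each library's sum was in small RNA genes. FPKM are estimates: genes that share reads are uncertain, and a listed 0 can be a failed estimate.

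FPKM are not counts, so limma 3.58.1 in R 4.3.3 was run on log2(FPKM + 1) for the 10228 loci whose mean reached 1 FPKM, with group as the only term and eBayes with a trend. The p-values are two-sided and adjusted by Benjamini-Hochberg over all of these genes. The pseudocount understates changes of low genes. An exact permutation test of 3 against 3 libraries cannot go below 0.1. The fit was tested on simulated data. Relative depth came from the most frequent log2 ratio of values between 0.002 and 0.3 FPKM to vehicle replicate 1. Since no more than 22.6% of ratios fell within 0.05 of it, whole reads could not be recovered. No 2 libraries shared more than 0.479% of values.

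The members and lists were chosen with earlier results of these data known. Named genes are the 10 members, every listed gene that passed, and the 5 loci most like the member of smallest p, 1 of which is not reported here. Further genes are marked. Of the listed genes, Pidd1 and Tigar were matched through older symbols, and Jak3 shares its locus with Insl3. Coordinates are from GENCODE M21 (GRCm38, the assembly that mm10 names). Promoters of 9 members come from RefSeq. Transcripts were aligned with Biopython 1.88. Figures were drawn with matplotlib 3.10.9.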

Additional observations from a re-analysis of the deposited data

How the results depend on the processing

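The number of loci called depended on the setting. The counts were 156 higher and 122 lower as reported, 95 and 62 after rescaling to an equal sum, 57 and 44 with the replicate block, 247 and 199 with robust eBayes, 262 and 214 without small RNA genes, 43 and 28 with replicates 2 and 3 only, 52 to 98 and 25 to 69 with 1 library left out, and the lower count was 77 with no filter and 80 with a term for replicate 1. The 0 members called higher stayed at 0 throughout, and the 0 called lower became 1 (Bcl2) without small RNA genes. That fit covered 10047 loci against 10228, and why Bcl2 passed there was not tested. Signs turned for Mcl1 (0.0072) with equal sums outside small RNA genes, for Bid (-0.0079) with replicates 2 and 3 only, and, with 1 library left out, for Bad (-0.072 to 0.17), Bid (-0.049 to 0.13, and -0.01 without vehicle replicate 1) and Bbc3 (-0.072 to 0.16); the cause was not tested. Of 265 fold changes of the 14 named genes, 246 kept their sign and side of the threshold. The p53 list gained 1 call higher with quantile normalization, with robust eBayes and without small RNA genes, and the list of factors that switch on BH3-only genes gained 1 with an equal sum, without small RNA genes and without 2DG replicate 3. The survival minus death score stayed negative in every alternative that gave a value (-0.39 to -0.17). The title numbers 17, 42 and 43 each stand on 1 2DG and 1 vehicle library, with no label for what they mark. The block, which ended the call of Il2ra (adjusted p = 0.054 by limma), was kept as an alternative because no label states a pairing. Deviations of same-numbered libraries from their group means correlated at -0.05, 0.38 and -0.20, with small RNA genes left out. With 3 libraries a group such deviations sum to 0 within the group, so these correlations cannot decide whether libraries were paired. Bcl2l11 and the survival minus death score have no value at a minimum of 5 FPKM. Depth is unknown, and 3 libraries a group limit what could be called.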

Other observations

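Of the 91 genes tested in the further lists, the groups stood apart in 13 lower and 13 higher with 2DG, 14.3% each, against 11.8% and 11.9% of all tested loci. The death pathway genes below did not pass the test or were not tested, and are named after their values were seen. Mlkl, which encodes the executioner of necroptosis, was at 0.449, 0.430 and 0.537 FPKM with 2DG, against 3.97, 1.01 and 1.23 FPKM with vehicle (adjusted p = 0.21 by limma). Casp9, the initiator caspase of the apoptosome, was at 1.84, 2.34 and 1.53 FPKM with 2DG, against 2.99, 3.88 and 3.05 FPKM with vehicle (adjusted p = 0.11). Perp, a p53 target, was at 9.76, 10.8 and 8.22 FPKM with 2DG, against 5.95, 6.69 and 6.35 FPKM with vehicle (adjusted p = 0.065). Chac1, a target of the stress factor ATF4, was at 10.7, 18.9 and 7.89 FPKM with 2DG, against 4.16, 4.38 and 5.53 FPKM with vehicle (adjusted p = 0.079). Bmf, a BH3-only gene under the filter and so not tested, was at 0.421, 0.352 and 0.302 FPKM with 2DG, against 0.509, 0.772 and 0.525 FPKM with vehicle.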
